A study of Mus musculus with 3 samples.

Results

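The replication-dependent histone genes supply the core histones H2A, H2B, H3 and H4 and the linker histone H1 for chromatin made during S phase. Of the 32285 features in the deposited matrices, 67 carry a symbol of the mouse Hist1, Hist2, Hist3 or Hist4 clusters, and 63 of them reached 20 UMIs (unique molecular identifiers, each standing for 1 captured RNA molecule) summed over the cells of 3 libraries. These 63 genes comprise 6 of class H1, 17 of H2a, 16 of H2b, 12 of H3 and 12 of H4. The copy just inside the threshold was Hist1h1t, the linker histone of the testis, with 76 UMIs, and the copy just outside was Hist1h2ba, with 8 UMIs. Hist1h4m, with 3 UMIs, Hist1h2bq, with 2 UMIs, and Hist2h2aa2, with 0 UMIs, were also left outside. The members were further sorted by their own ratio at 3 h, so the values at 3 h below are a description of what chose the groups.

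Single-cell RNA was captured from E14 mouse embryonic stem cells (129/Ola background) grown in medium with serum and LIF, the cytokine that keeps them undifferentiated. One library held cells given DMSO for 6 h, and the others held cells given 10 uM tubercidin, an adenosine analogue, for 3 h or for 6 h. There was 1 library per group, so no difference below has a replicate check, no test was run, and each interval covers counting error only. No 3 h DMSO library was analysed here, so the 3 h ratio also spans the difference in time.

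Sets of 3 values below follow the order control, 3 h, 6 h. Called cells numbered 2031, 2365 and 2926, with a median of 48452, 11877 and 8004.5 UMIs per cell. Levels are CPM, the UMIs of a gene per 1000000 UMIs of its library, and so are shares of the captured RNA. Each pair of libraries shared 1 cell barcode. The stem cell markers Pou5f1, Sox2, Nanog, Zfp42, Esrrb, Dppa5a, Tdgf1 and Utf1 together held 4347, 5178 and 3785 CPM, and none was at 0. They differed in direction. At 3 h, 5 of the 8 were above and 3 below the control beyond counting error (18.1% and 47.0% of all features). At 6 h, 2 were above and 5 below (29.9% and 35.6%). At least 2-fold lower were 1 at 3 h and 1 at 6 h (6.20% and 5.11%). The 8 fibroblast-like markers summed to between 3.25 and 4.17 CPM, the 8 primitive-endoderm-like markers to between 47.4 and 65.5 CPM, mostly Lama1, and the 7 trophoblast-like markers to between 39.0 and 45.6 CPM, mostly Krt8. Of 8 markers of the 2-cell-like state found in the files, 6 had 0 UMIs in the control (an upper limit of 0.0286 CPM each), 7 at 3 h and 4 at 6 h. The part of any of these cells in the histone values was not tested.

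Most animal mRNAs end in a poly(A) tail, but the bulk of replication-dependent histone mRNA ends just after a conserved stem-loop. The stem-loop-binding protein SLBP and the U7 snRNP direct the cut there, and the same structure serves rapid decay when DNA synthesis stops. Some copies can also be cut and polyadenylated further downstream, which is known from differentiating and non-cycling cells. A library primed on poly(A) therefore sees only part of the histone mRNA pool, and the values below are those of RNA captured by poly(A) priming, with the end of each molecule not measured.

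All 63 genes were found in the GENCODE M21 annotation of GRCm38, the build that mm10 denotes. On chromosome 13, 51 lie between positions 21715763 and 23934851, 9 lie on chromosome 3, 2 on chromosome 11, and Hist4h4 alone on chromosome 6. The transcript models of 44 genes contain the histone 3′ stem-loop, against 13 of the 32095 other annotated genes of the files (0.0405%). The windows below, read from GENCODE M21 transcripts and shown 5′ to 3′ as DNA letters, hold the stem-loop of 6 copies on which the results turn. Capitals mark the paired bases of the stem.

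Hist1h2ap, chr13:21833026-21833051, minus strand: aaaaaaaGGCTCTtttcAGAGCCatc

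Hist1h2ao, chr13:21810891-21810920, plus strand: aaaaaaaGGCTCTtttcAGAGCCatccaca

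Hist1h2ae, chr13:23570661-23570690, minus strand: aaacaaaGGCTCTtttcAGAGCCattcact

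Hist1h2bg, chr13:23571836-23571865, plus strand: acccaaaGGCTCTtttcAGAGCCacccata

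Hist1h4d, chr13:23581943-23581972, plus strand: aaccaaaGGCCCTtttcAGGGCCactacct

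Hist4h4, chr6:136803991-136804020, minus strand: ccacaaaGGCCCTtttcAGGGCCcacaaag

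The stem of Hist1h2ap, the copy furthest below the control at 3 h, has the same letters as those of Hist1h2ao and Hist1h2bg, which were above it. Likewise the stem-loops of Hist1h4d (below) and Hist4h4 (above) have the same 16 letters. The form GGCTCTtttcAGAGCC was held by 25 copies, of which 9 were higher and 13 lower than the control at 3 h beyond counting error. The form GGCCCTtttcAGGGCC was held by 6 copies, all of class H4, with 3 higher and 3 lower.

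Seen as a whole, histone RNA took 0.283%, 0.108% and 0.128% of all UMIs, and its summed level was 2829, 1080 and 1284 CPM. The sum was 2.62-fold below the control at 3 h (log2 interval of the ratio −1.41 to −1.37), and 2.20-fold below it at 6 h (−1.16 to −1.12). A pair of genes carried much of this difference. Hist1h1b, which encodes linker histone H1.5, and the H2A copy Hist1h2ap made up 55.3%, 17.8% and 32.1% of the histone UMIs. Over the other 61 genes the sum was below the control by 1.42-fold after 3 h and by 1.45-fold after 6 h.

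**Figure D1:**
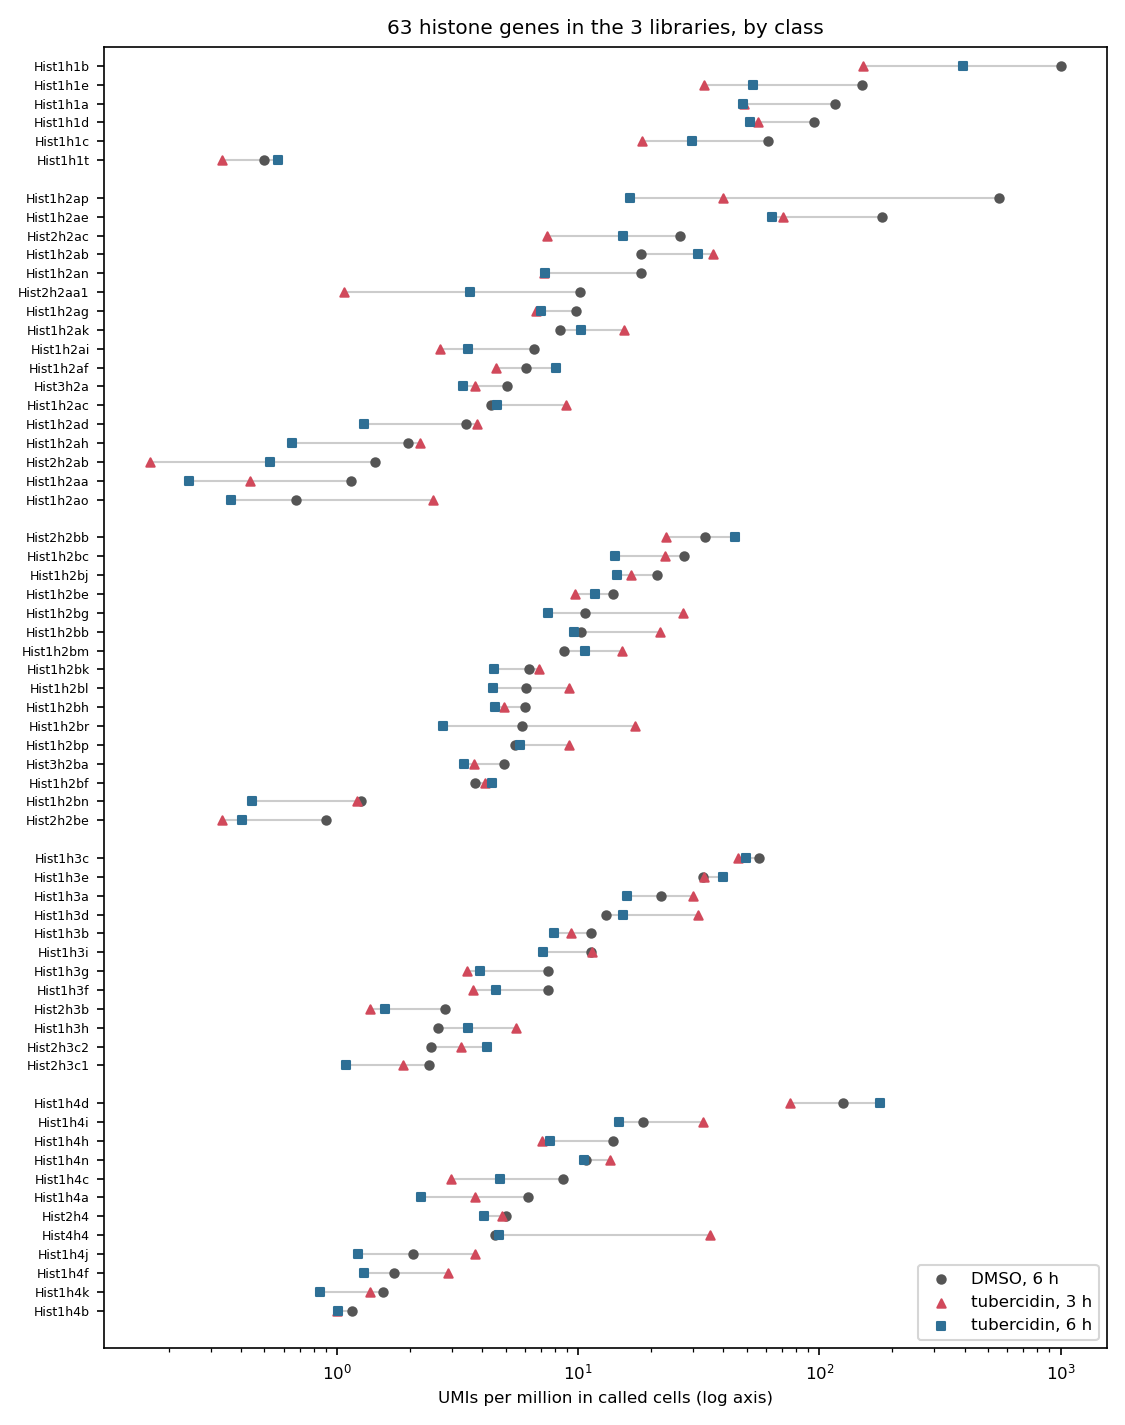
Level in CPM (log axis) of the 63 histone genes, grouped by class from H1 at the top to H4 at the bottom, with 1 point per library. Hist1h1b (1009, 152 and 396 CPM) and Hist1h2ap (556, 40.0 and 16.3 CPM) lie far to the right in the control, and Hist4h4 stands apart by its 3 h point (35.03 CPM against 4.52 and 4.70 CPM).

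By class, the sums of H1 and H2a had large differences, and single copies carried much of these sums. Hist1h1b held 70.4%, 49.3% and 68.4% of the H1 UMIs, and Hist1h2ap 64.7% of the H2a UMIs in the control. The median log2 ratios of the members at 3 h and 6 h were −1.46 and −1.14 for H1 and −0.49 and −0.75 for H2a. Summed H1 was 1432, 308 and 579 CPM, with log2 ratios of −2.21 and −1.31. Summed H2a was 860, 214 and 177 CPM, or 4.02-fold and 4.84-fold lower. H1 was thus higher at 6 h than at 3 h (log2 ratio 0.91), whereas H2a was lower (−0.27). The sums of the remaining classes stayed near the control. H2b was 167, 193 and 143 CPM (0.21 and −0.22), H3 was 172, 181 and 155 CPM (0.07 and −0.15), and H4 was 199, 185 and 231 CPM (−0.11 and 0.21). Hist1h4d held 62.8%, 41.0% and 77.0% of the H4 UMIs. The median member ratios of H2b, H3 and H4 were 0.04, −0.12 and −0.08 at 3 h and −0.40, −0.45 and −0.28 at 6 h. With median-of-ratios scaling the summed H4 value at 3 h changed sign, to 0.13, and counted per cell all 5 classes were at least 2-fold lower at both times.

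Single copies ran in both directions at 3 h. Among the 58 members with a mean of at least 1 CPM, 6 were at least 2-fold higher than the control, beside 1.60% of all 13587 features at that level, and 11 were at least 2-fold lower, beside 6.20%. By the counting interval of the ratio, 19 of the 63 were above the control (18.1% of 18645 features with at least 20 UMIs), 32 were below (47.0%), and the intervals of 12 held 0. The rule used this contrast, so nothing is read from these shares. Of the 6, Hist1h2ao reached a mean of 1 CPM only through the 3 h library. The median log2 ratio of the 58 members was −0.25, and that of all features was also −0.25. Median-of-ratios scaling moved the median of all features by 0.21 and gave 11 members at least 2-fold higher and 9 lower. Scaling by TMM, the trimmed mean of M values, gave 11 and 10. Counted as UMIs per cell, where cells at 3 h held fewer UMIs of nearly every gene, none was at least 2-fold higher and 41 were lower.

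**Figure D2:**
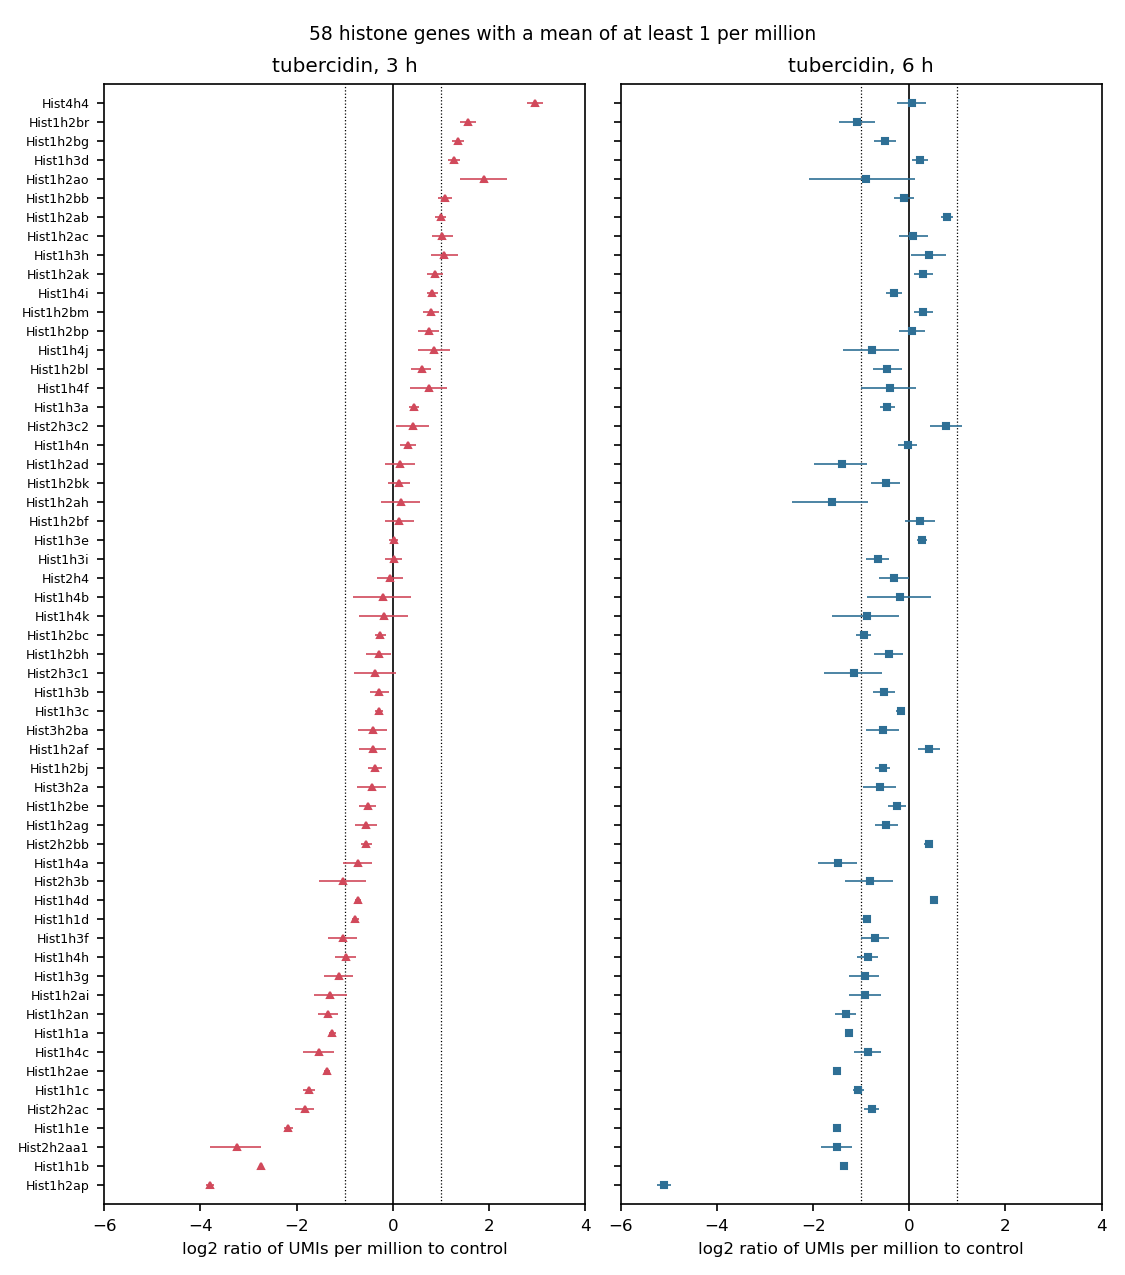
Log2 ratio of CPM to the DMSO library (horizontal axis, no pseudocount) for the 58 histone copies averaging 1 CPM or more, at 3 h (left) and 6 h (right), ordered by the 3 h ratio with CPM + 1. Bars are 95% counting intervals and dotted lines mark 2-fold. At 3 h the genes ran from Hist1h2ap at the bottom to Hist4h4 at the top, and at 6 h none was at least 2-fold higher, while Hist1h2ap was lower still. Counted per cell, Hist4h4 was the only one of the 6 top genes at 3 h that stayed above the control.

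Among the linker histones, which bind DNA between nucleosomes, 5 of 6 were lower at 3 h beyond counting error and Hist1h1t was not distinguishable. Hist1h1b had 105790, 4537 and 9762 UMIs, or 1009, 152 and 396 CPM. It was 6.64-fold lower at 3 h (log2 ratio −2.72, interval −2.78 to −2.69) and 2.55-fold lower at 6 h (−1.35, −1.38 to −1.32). Its level at 6 h was thus 2.61-fold above that at 3 h. Hist1h1e, which encodes H1.4, was 150, 33.3 and 53.0 CPM, or 4.51-fold and 2.83-fold lower. Hist1h1c, which encodes H1.2, was 61.4, 18.5 and 29.5 CPM, or 3.33-fold and 2.08-fold lower. These 3 genes were lowest at 3 h. In contrast, Hist1h1a (116, 48.6 and 48.5 CPM) and Hist1h1d (95.3, 55.5 and 51.5 CPM) had nearly the same level at 6 h as at 3 h, with log2 ratios of 6 h to 3 h of 0.00 and −0.11.

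The H2A copies included the largest difference of all. Hist1h2ap had 58370, 1195 and 403 UMIs, or 556, 40.0 and 16.3 CPM. It was 13.9-fold lower at 3 h (log2 ratio −3.77, interval −3.88 to −3.72) and 34.1-fold lower at 6 h (−5.01, −5.24 to −4.95). Its level was 2.45-fold lower at 6 h than at 3 h, opposite in direction to Hist1h1b. Hist2h2aa1 had 1063, 32 and 88 UMIs (10.1, 1.07 and 3.57 CPM), and Hist2h2ac 26.4, 7.39 and 15.3 CPM. Both were lowest at 3 h. Hist1h2ae, the second most abundant H2A copy in the control, was 182, 70.7 and 63.7 CPM, or 2.57-fold and 2.85-fold lower.

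Hist1h2ap and Hist1h2ao are near-identical copies. Of the 31-base words of the Hist1h2ap model, 93.4% also occur in that of Hist1h2ao, and all of the words of its last 90 bases occur in another member. The 2 copies nonetheless lay on opposite sides of the control at 3 h. Hist1h2ao had 71, 75 and 9 UMIs (0.677, 2.51 and 0.365 CPM) and a log2 ratio of 1.07 at 3 h. How the counting assigned reads that fit both copies is not given in the sources used here, so the split between them is uncertain. The models of both contain a run of 12 consecutive A letters, and 15 were found in Hist1h2ac and 11 in Hist1h2be; over the 63 members the median of the longest run was 4. Oligo(dT) primers can also anneal to such internal runs, and their part in these values was not tested.

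The highest ratio at 3 h was that of Hist4h4, an H4 gene with a model of 2863 bases that runs 2445 bases past its stem-loop and has 4 polyadenylation signals (AATAAA or ATTAAA) after it. It had 474, 1047 and 116 UMIs, or 4.52, 35.03 and 4.70 CPM. It was 7.75-fold higher at 3 h (log2 ratio 2.71, interval of the ratio without pseudocount 2.80 to 3.11), and at 6 h its interval held 0 (−0.25 to 0.35). Counted per cell it remained above the control at 3 h, with means of 0.233, 0.443 and 0.0396 UMIs per cell. Of the 63 members it was the only one above the control at 3 h per cell beyond counting error.

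The other copies at least 2-fold higher at 3 h were the H2B copies Hist1h2br, Hist1h2bg and Hist1h2bb, the H3 copy Hist1h3d, and Hist1h2ao. Hist1h2ao (0.677, 2.51 and 0.365 CPM) passed the filter of a mean of 1 CPM only through the 3 h library where it was high. Hist1h2br was 5.83, 17.3 and 2.76 CPM, with log2 ratios of 1.42 and −0.86. Hist1h2bg was 10.7, 27.3 and 7.495 CPM, with log2 ratios of 1.28 and −0.46. Hist1h3d was 13.0, 31.4 and 15.3 CPM, with log2 ratios of 1.21 and 0.22. Hist1h2bb was 10.3, 21.9 and 9.56 CPM, with log2 ratios of 1.02 and −0.10, and it fell short of 2-fold at 3 h (0.91) after free RNA was subtracted at 10% of UMIs. All 5 were closer to the control at 6 h or below it. Counted per cell, all 5 were below the control at 3 h, with log2 values from −0.83 to −0.055.

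The 6 h library was not used to sort the copies, but its ratios share the control library with those at 3 h, so the values are set side by side only. At 6 h none of the 58 members was at least 2-fold higher than the control (4.56% of all features were), and 9 were at least 2-fold lower (5.11%). By the counting interval 10 of the 63 were above (29.9%) and 42 were below (35.6%). The median log2 ratio of the 58 members was −0.45, against −0.09 for all features. Of the 19 copies above the control at 3 h, 6 were above it at 6 h, 6 were below it, and the intervals of 7 held 0. Of the 58 members with a mean of at least 1 CPM, 6 were above at 3 h and below at 6 h (1.37% of all features) and 3 were below and then above (6.46%); these ratios share the control. Summed, the 19 stood at 156, 321 and 159 CPM. The 32 copies below at 3 h summed to 2601, 687 and 1060 CPM, and 29 of them were below at 6 h as well.

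Highest at 6 h were Hist1h2ab (18.2, 36.3 and 31.4 CPM; log2 ratio 0.76), Hist2h3c2 (2.45, 3.28 and 4.17 CPM; 0.58) and Hist1h4d (125, 75.7 and 178 CPM; 0.51). They were followed by Hist2h2bb (33.7, 23.0 and 44.6 CPM; 0.39), Hist1h2af (6.07, 4.55 and 8.10 CPM; 0.36) and Hist1h3h (2.62, 5.52 and 3.48 CPM; 0.31). Hist1h4d, the most abundant H4 copy in every library, held 62.8%, 41.0% and 77.0% of the H4 UMIs. In the direct ratio of 6 h to 3 h, 9 of 58 members were at least 2-fold lower, where only 33 of 13587 features (0.243%) were, and 3 were at least 2-fold higher (2.69%). The 9 were Hist4h4, Hist1h2br, Hist1h2bg, Hist1h2ao, Hist1h2ap, Hist1h2bb, Hist1h4j, Hist1h4i and Hist1h2ad, with log2 ratios from −2.66 to −1.07. Median-of-ratios and TMM scaling gave 14. By the counting interval, 12 of the 63 were above the 3 h level (37.4%) and 29 below it (11.6%). Of the 9 copies at least 2-fold lower, 7 had been placed on the higher side by the 3 h library, which this ratio shares. Hist1h2ao, among these 7, also reached a mean of 1 CPM only through that library.

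The abundant copies of the remaining classes differed less from the control. Hist1h3c was 56.3, 46.2 and 49.8 CPM, and Hist1h3e 32.9, 33.3 and 39.7 CPM. Hist1h2bc was 27.4, 22.9 and 14.2 CPM, with log2 ratios of −0.25 and −0.90. Hist1h4i was 18.5, 32.8 and 14.8 CPM (0.79 and −0.30). Hist2h2be, a copy known to be polyadenylated in some non-dividing cells, had 94, 10 and 10 UMIs, too few for more than a direction. Reads of overlapping genes cannot be fully separated: Hist1h1e overlaps Hist1h2be on its own strand, Hist3h2a overlaps Trim17, and Hist2h2bb overlaps Gm42743. Further, Hist2h2aa1, Hist2h2ab, Hist2h3b, Hist2h2bb and Hist1h4b each overlap an antisense gene.

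Copies on either side of the control were found with every kind of annotated end. Of 21 copies whose model ends less than 100 bases past the stem-loop, 8 were higher and 9 lower at 3 h. Of 23 with a longer model, 7 were higher and 12 lower, and of 19 with no stem-loop in the model, 4 and 11. Of these 19 models, 10 hold the coding sequence only, so the absence of the stem-loop there says nothing about the gene. The others include Hist1h1b, the most abundant member, whose model has 743 bases, 672 of them coding, and Hist1h1a (741 and 642). The search used 1 pattern of 16 bases with a few variable positions. Whether the other models stop short of a stem-loop or hold a different form was not tested. Among models that hold the stem-loop, a polyadenylation signal after it was present in 4 of 15 higher and 10 of 21 lower copies. Starting levels differed between the groups, with median control levels of 6.05 CPM for the higher and 12.6 CPM for the lower copies.

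Many histone genes are arranged as divergent pairs, which share the DNA between their starts. The members form 11 such pairs, whose starts lie 176 to 660 bases apart. In 5 pairs 1 partner was higher and the other lower at 3 h, in 3 both were lower, in 2 neither differed, and in 1 a higher copy was paired with one that did not differ. These sides are the 3 h values that sorted the copies, with 19 higher and 32 lower among the 63, so nothing is read from the number of split pairs. The widest split was that of Hist1h2ap (log2 ratio −3.77) and Hist1h2br (1.42), followed by Hist1h2ae (−1.35) and Hist1h2bg (1.28). In 4 of the 5 split pairs the H2A gene was lower and the H2B gene higher. The fifth was the reverse, with Hist1h2ac at 0.89 and Hist1h2bc at −0.25. At 6 h no partner of a split pair was at least 2-fold higher, and Hist1h2br (−0.86) and Hist1h2bg (−0.46) were below the control like their partners.

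**Figure D3:**
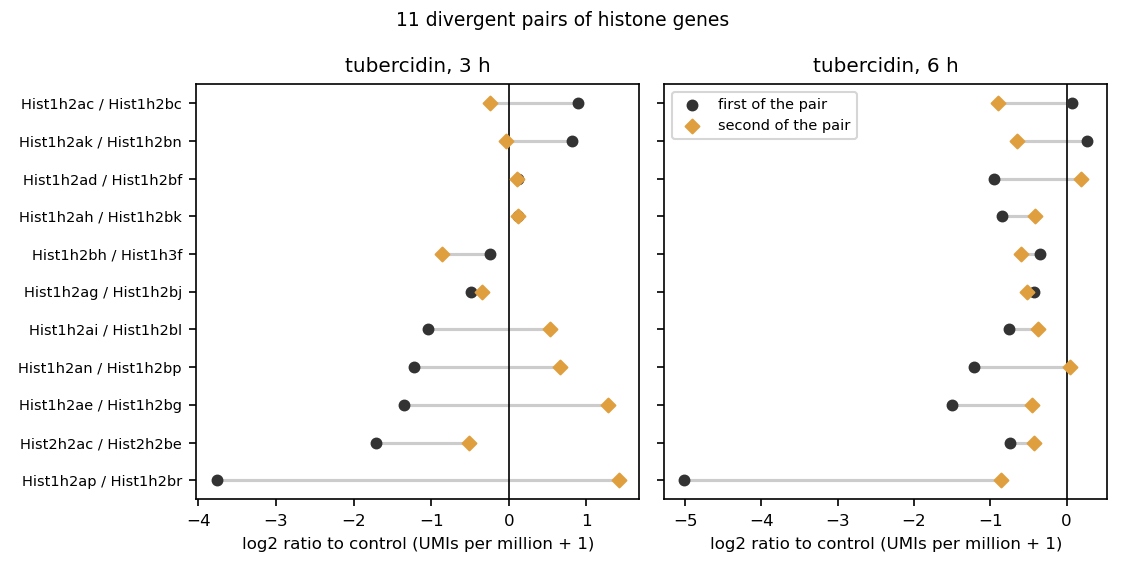
Log2 ratio to the DMSO library (CPM + 1, horizontal axis) of both genes of the 11 divergent pairs, at 3 h (left) and 6 h (right), with a grey line joining partners. Circles are the first and diamonds the second gene named. At 3 h, 5 lines cross 0 beyond counting error at both ends, the widest being that of Hist1h2ap and Hist1h2br (−3.77 and 1.42); per cell, both partners of that pair were below the control.

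The sequences between the starts of the 2 widest split pairs, with genome coordinates of GRCm38, are shown on the plus strand because both genes of a pair read out from them. Capitals mark CCAAT or its reverse complement ATTGG, the box bound by NF-Y, and TATAAA, the core of the TATA box.

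Hist1h2ae and Hist1h2bg, chr13:23571221-23571395: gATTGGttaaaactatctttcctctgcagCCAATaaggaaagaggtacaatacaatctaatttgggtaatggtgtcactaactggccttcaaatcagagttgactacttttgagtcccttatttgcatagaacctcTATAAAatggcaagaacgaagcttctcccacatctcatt

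Hist1h2ap and Hist1h2br, chr13:21833508-21833742: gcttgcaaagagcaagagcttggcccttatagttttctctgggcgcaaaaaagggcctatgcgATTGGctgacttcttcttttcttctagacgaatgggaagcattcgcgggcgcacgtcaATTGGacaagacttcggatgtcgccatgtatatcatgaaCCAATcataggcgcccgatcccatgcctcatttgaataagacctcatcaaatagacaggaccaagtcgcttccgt

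The first holds 2 CCAAT boxes, 1 on each strand, and 1 TATAAA. The second holds 3 CCAAT boxes and no TATAAA. For comparison, the 250 bases before the RefSeq start of Hist1h1b (GRCm38.p6) hold 3 CCAAT boxes and 1 TATAAA, and those before Hist4h4 hold neither word.

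Hist1h1b promoter, chr13:21780626-21780875, minus strand: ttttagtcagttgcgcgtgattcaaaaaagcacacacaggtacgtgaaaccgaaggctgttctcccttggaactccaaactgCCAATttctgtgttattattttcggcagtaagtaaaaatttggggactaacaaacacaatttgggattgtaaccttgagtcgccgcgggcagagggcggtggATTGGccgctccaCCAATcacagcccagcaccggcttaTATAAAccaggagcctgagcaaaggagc

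Hist4h4 promoter, chr6:136804432-136804681, minus strand: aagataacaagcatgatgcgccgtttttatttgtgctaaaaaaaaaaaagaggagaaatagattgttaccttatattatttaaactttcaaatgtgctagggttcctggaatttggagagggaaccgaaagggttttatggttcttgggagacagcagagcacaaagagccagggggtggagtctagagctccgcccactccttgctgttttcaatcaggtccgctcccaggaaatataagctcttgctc

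RefSeq promoters were matched for 57 members, and both words were searched on both strands, with any overlap between them allowed. CCAAT was present in 47 of the 57 (82.5%), against 34.5% of 27025 promoters of the same length, and TATAAA in 27 (47.4%), against 13.0%. By direction at 3 h, CCAAT was found before 27 of 28 lower copies and 12 of 18 higher copies, and TATAAA before 12 and 10 of them. The lower copy without CCAAT was Hist1h4h, of class H4. The higher copies without it were Hist4h4, Hist1h4i, Hist1h4n, Hist1h4j and Hist1h4f, all of class H4, and the H3 copy Hist2h3c2. All matched H2a and H2b promoters held CCAAT, so class and direction are mixed in these counts. The groups were chosen on these libraries, and a match is a description of letters, not of a bound site.

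Across cells the control was wide. Hist1h1b had 4 UMIs or fewer in the lowest 10% of control cells, a median of 50 and 107 or more in the highest 10%, and Hist1h2ap had 2, 28 and 57. To compare libraries, each cell was thinned at random to 4000 UMIs, which left out 122 cells at 3 h and 284 at 6 h as too shallow. Hist1h1b was then detected in 81.6%, 38.2% and 62.0% of cells, and the exact Clopper-Pearson bounds at 95% were 79.8 and 83.2, 36.2 and 40.3, and 60.2 and 63.9. Without thinning the shares were 98.7%, 64.1% and 72.6%. Hist1h2ap was detected in 71.4%, 14.1% and 6.06% of thinned cells. In both genes the whole distribution lay lower after treatment, with medians of 3, 0 and 1 UMIs for Hist1h1b and 2, 0 and 0 for Hist1h2ap. Any of the 63 genes was seen in 97.0%, 92.0% and 92.6% of thinned cells.

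**Figure D4:**
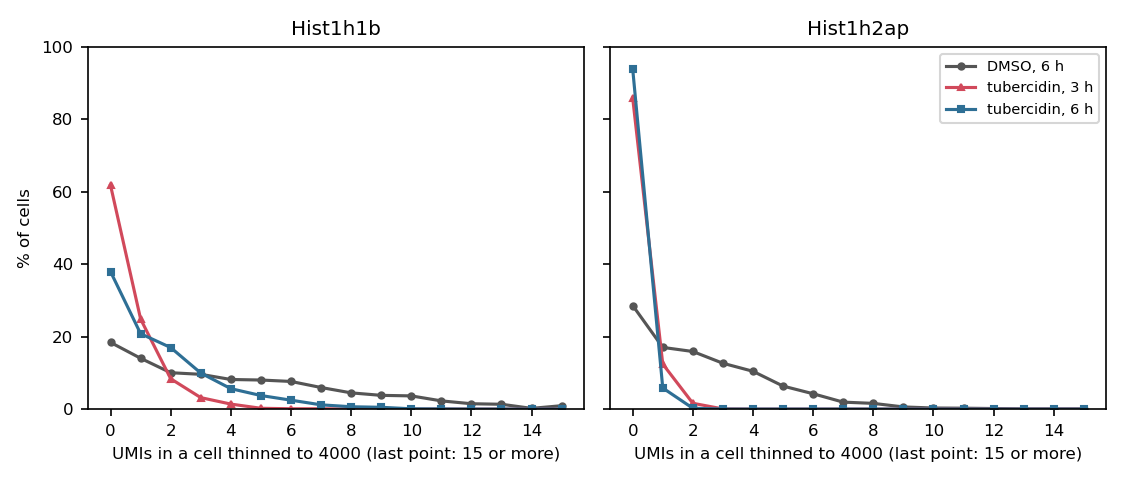
Share of cells (vertical axis) with each number of UMIs of Hist1h1b (left) and Hist1h2ap (right) after thinning each cell to 4000 UMIs, with 1 line per library. In the control the highest 10% of cells had 9 or more UMIs of Hist1h1b, while 61.8% of cells at 3 h and 38.0% at 6 h had no UMI of Hist1h1b.

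All cells were of 1 line, so the background from free RNA was taken from 10000 barcodes per library ranked below the cells. In these barcodes Hist1h1b was 508, 148 and 177 CPM, and Hist1h2ap 228, 35.6 and 8.49 CPM; both had the order of the libraries seen in cells. The 19 copies higher at 3 h summed to 107, 372 and 126 CPM in these barcodes, against 156, 321 and 159 CPM in cells. Hist4h4 was 2.02, 40.7 and 3.54 CPM there, against 4.52, 35.03 and 4.70 CPM in cells. Both levels were thus higher in free RNA than in cells at 3 h, and lower in the control. The free RNA had the same order of libraries as the cells for these values, but not for all members. Over the 63 genes it was 1537, 1201 and 808 CPM, against 2829, 1080 and 1284 CPM in cells. The 32 copies lower at 3 h were 1393, 760 and 645 CPM there, against 2601, 687 and 1060 CPM in cells. Hist1h4d, below the control at 3 h in cells, was above it in free RNA (116 against 85.9 CPM). The part of free RNA in the cell values was not tested beyond a subtraction at 10% of UMIs. After that subtraction the log2 ratio of Hist4h4 at 3 h was 2.63.

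Within a library, Hist1h1b and Hist1h2ap varied together across control cells (thinned to 4000 UMIs; Pearson r 0.522, Spearman rho 0.619, 2031 cells). At 3 h the coefficient was 0.102 over 2243 cells and at 6 h 0.100 over 2642 cells, where the mean of Hist1h2ap was only 0.158 and 0.0628 UMIs per cell. Cells share library and depth, and these coefficients are descriptions. The sum of 28 genes of S-phase entry and DNA replication had a weak relation to summed histone UMIs (r 0.091, −0.063 and 0.033). Thinned cells averaged 12.8, 11.9 and 13.0 UMIs of these 28 genes and 11.4, 4.30 and 5.13 histone UMIs. Nothing is read from these coefficients, and the reason for the weak relation was not tested.

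Hist4h4 was unevenly spread among cells at 3 h. It had 0 UMIs in 1827 cells, 1 in 350, 2 in 86 and 3 or more in 102, with a highest value of 19. In the control 5 of 2031 cells had 3 or more, with a highest value of 4, at a median depth of 48452 UMIs per cell against 11877. After thinning, 10.1% of cells at 3 h had a Hist4h4 UMI (8.86 to 11.4), against 1.48% in the control and 2.16% at 6 h. Before thinning, the share was 19.7% of DMSO cells, 22.7% of cells treated for 3 h and 3.76% of those treated for 6 h.

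At 3 h, 41 cells had 5 or more Hist4h4 UMIs and together held 30.2% of its UMIs. This is a range of 1 gene's counts chosen after its values were seen, not a cell type, and 26 cells had 4 UMIs and 10 had 5, next to the limit. Their median depth was 12962 UMIs, against 11864 in the other 2324 cells, and their mitochondrial share 2.93% against 3.29%. Of the 62 other members, 33 were above the remaining cells beyond counting error, where 5.15% of all features were, 3 were below (3.28%), and the intervals of 26 held 0. Intervals for these cells, here and below, pool the UMIs of all cells in a range and leave out variation between cells. The classes differed: without Hist4h4, summed H2B was 464 against 188 CPM and H4 356 against 145 CPM, H3 was 315 against 178 CPM, H2A was 223 against 214 CPM, and H1 was 259 against 309 CPM. Median levels over cells were 479 CPM against 231 CPM for the other 18 copies higher at 3 h, 625 against 557 CPM for the 32 lower copies, and 134 against 0 CPM for the remaining 12.

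The copies with the largest ratios were again of class H4. Hist1h4a had 22 UMIs in the 41 cells and was 37.4 CPM against 3.07 CPM elsewhere (12.2-fold, 7.28 to 19.6). Hist1h4c had 17 UMIs, 28.9 against 2.46 CPM (11.8-fold, 6.50 to 20.2), although over the whole library it was 2.91-fold below the control at 3 h. Hist2h4 had 20 UMIs, 34.0 against 4.23 CPM (8.04-fold, 4.75 to 13.0). In the opposite direction were Hist1h1b, at 73.2 against 153 CPM, Hist1h2ap, at 15.3 against 40.5 CPM, and Hist1h3c, at 25.5 against 46.6 CPM. With the limit at 3 UMIs, which 102 cells reached, 35 members were above (5.73% of all features) and 4 below (5.50%).

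Replacement histones are mostly made from ordinary polyadenylated mRNAs outside S phase as well; H2afx also makes a stem-loop mRNA, and Cenpa is regulated in the cell cycle. Of 11 measured at 1 CPM or more, 2 were above and 9 below the control at 3 h beyond counting error (18.1% and 47.0% of all features). By size, 0 were at least 2-fold higher (1.60% of all features) and 1, H2afx, was at least 2-fold lower (6.20%). The median log2 ratio was −0.34, against −0.25 for all features. H2afx, the H2A variant phosphorylated at DNA breaks, was 581, 283 and 373 CPM (log2 ratios −1.03 and −0.64; −0.79 at 3 h with median-of-ratios and −0.82 with TMM scaling). H3f3b, which encodes H3.3, was 1729, 1041 and 1089 CPM (−0.73 and −0.67), and H3f3a, which encodes the same protein, was 934, 821 and 591 CPM. Cenpa, the H3 variant of centromeres, was 107, 63.4 and 53.5 CPM (−0.75 and −0.99). H2afz was 2681, 2114 and 2647 CPM (−0.34 and −0.02), and H1f0, a linker histone of resting cells, 17.3, 13.6 and 14.4 CPM. H2afj was higher, at 231, 278 and 409 CPM (0.27 and 0.82), as was H2afy, which encodes macroH2A, at 3 h (85.2, 95.9 and 94.9 CPM; 0.17 and 0.15).

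Of 15 factors that make and process histone mRNA, 4 were above and 11 below the control at 3 h beyond counting error (18.1% and 47.0% of all features), and 4 were above and 9 below at 6 h (29.9% and 35.6%). By size, 2 were at least 2-fold lower at 3 h and 1 at 6 h (6.20% and 5.11% of all features). At least 2-fold higher were 0 (1.60% and 4.56%). The medians of the list were −0.41 and −0.20, against −0.25 and −0.09 for all features. The 2 at 3 h were Npat, the coactivator of histone gene transcription, at 62.4, 29.1 and 30.9 CPM (−1.08 and −0.99), and Casp8ap2, known as FLASH, which joins the U7 snRNP at the cut site, at 122, 51.6 and 54.0 CPM (−1.22 and −1.16). At 3 h both missed 2-fold with median-of-ratios scaling (−0.84 and −0.99), and with TMM scaling Npat did (−0.87) and Casp8ap2 did not (−1.01). Slbp was 210, 130 and 112 CPM (−0.68 and −0.89). Lsm11, a ring subunit of the U7 snRNP, was 17.3, 11.1 and 9.72 CPM (−0.59 and −0.77), and its partner Lsm10 was 28.3, 22.8 and 16.8 CPM. Srrt, a partner of the cap-binding complex, was 147, 166 and 238 CPM (0.18 and 0.69), and Sympk, a scaffold of the cleavage complex, 31.9, 35.2 and 50.04 CPM (0.14 and 0.63). Nelfe, a subunit of the negative elongation factor, was 66.7, 75.1 and 80.7 CPM.

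Of 15 histone mRNA decay factors found in the files, 1 was at least 2-fold lower at 3 h and 2 at 6 h, and 0 were at least 2-fold higher. Over all features, 6.20% and 5.11% were at least 2-fold lower, and 1.60% and 4.56% at least 2-fold higher. By the counting interval, 2 of the 15 were above and 12 below the control at 3 h (18.1% and 47.0% of all features). At 6 h, 8 were above and 6 below (29.9% and 35.6%). The medians of the list were −0.27 and 0.08, against −0.25 and −0.09 for all features. Lsm1, of the cytoplasmic Lsm ring, was 79.3, 36.5 and 34.2 CPM (−1.10 and −1.19), and Lsm5 was 238, 142 and 102 CPM (−0.74 and −1.22), whereas Lsm7 of the same ring was 308, 444 and 466 CPM (0.53 and 0.60). The 3 h value of Lsm1 was −0.86 with median-of-ratios and −0.89 with TMM scaling. Eri1, the exonuclease that trims the stem-loop end, was 55.0, 36.3 and 32.8 CPM (−0.59 and −0.73). Atr, the kinase of the replication checkpoint, was 42.7, 21.04 and 27.0 CPM (−0.99 and −0.64). Pnrc2 was 19.9, 13.0 and 9.60 CPM, Xrn1, a 5′ exonuclease, 91.8, 69.8 and 107 CPM, Upf1, a helicase of this decay, 48.9, 41.1 and 54.1 CPM, and Exosc10, an exosome subunit, 62.0, 65.7 and 80.3 CPM.

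Of 20 histone chaperones and assembly factors, 0 were past 2-fold in either direction at 3 h or at 6 h. Of all features, 6.20% and 5.11% were at least 2-fold lower, and 1.60% and 4.56% at least 2-fold higher. By the counting interval, 6 of the 20 were above and 13 below the control at 3 h (18.1% and 47.0% of all features). At 6 h, 7 were above and 10 below (29.9% and 35.6%). The medians of the list were −0.30 and −0.05, against −0.25 and −0.09 for all features. Nasp, a chaperone of H1, H3 and H4, was higher at 1077, 1346 and 1416 CPM (0.32 and 0.39). Asf1b and Asf1a, chaperones of H3 and H4, were lower, at 73.5, 36.4 and 39.4 CPM (−0.99 and −0.88) and 68.4, 53.9 and 34.3 CPM (−0.34 and −0.98). Atrx, a chromatin remodeller, was 335, 184 and 270 CPM, and Daxx, its H3.3 chaperone partner, 49.5, 59.8 and 48.3 CPM. Supt16 and Ssrp1, the subunits of the FACT complex, diverged at 3 h, with 507, 338 and 533 CPM and 244, 315 and 277 CPM. Hira, another H3.3 chaperone, was 69.4, 83.4 and 111 CPM, and Ipo4, a nuclear importer of histones, 40.5, 55.5 and 49.8 CPM.

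Of 28 genes of S-phase entry and replication, 2 were at least 2-fold lower at 3 h and 0 at 6 h. The shares of all features were 6.20% and 5.11%. By the counting interval, 7 were above and 21 below the control at 3 h (18.1% and 47.0% of all features). At 6 h, 7 were above and 19 below (29.9% and 35.6%). The medians of the list were −0.32 and −0.26, against −0.25 and −0.09 for all features. The 2 genes lower at 3 h were Ccne2, which encodes cyclin E2, at 21.8, 9.07 and 10.8 CPM (−1.18 and −0.95), and E2f2, at 10.8, 4.45 and 5.55 CPM (−1.12 and −0.86). Both missed 2-fold at 3 h with median-of-ratios (−0.96 and −0.92) and TMM scaling (−0.99 and −0.94). Pcna, the sliding clamp, was 191, 116 and 106 CPM (−0.71 and −0.84), and Rrm2, a subunit of ribonucleotide reductase, 167, 125 and 89.0 CPM (−0.42 and −0.90). Cdt1, which loads the replicative helicase, was 81.0, 71.1 and 48.2 CPM. The helicase subunits Mcm7 (405, 499 and 705 CPM; 0.30 and 0.80) and Mcm4 (161, 89.4 and 146 CPM; −0.84 and −0.14) differed in direction at 3 h. Rpa2 (72.3, 92.8 and 90.9 CPM), Ung (42.5, 52.7 and 48.7 CPM) and Uhrf1 (122, 140 and 177 CPM) were higher at both times. Counted per cell, 89 list genes in all were at least 2-fold lower at 3 h, and with TMM scaling 1 was.

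**Figure D5:**
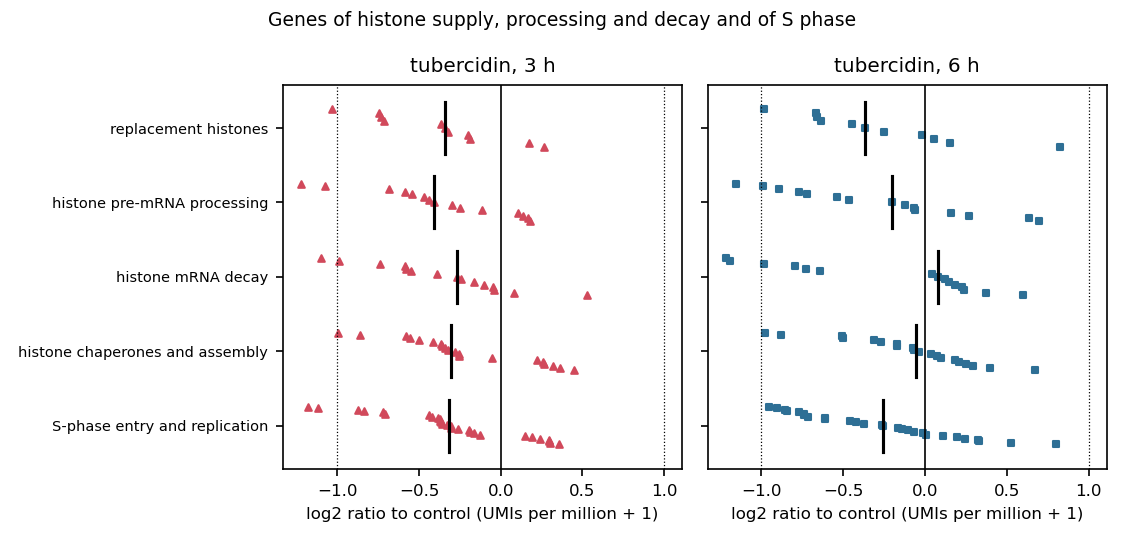
Log2 ratio to the DMSO library (CPM + 1, horizontal axis) of each gene in 5 lists at 3 h (left) and 6 h (right), with the median as a black bar and 2-fold as dotted lines. None lies beyond the upper dotted line, and at 3 h Casp8ap2, Npat, Lsm1, Ccne2, E2f2 and H2afx lie beyond the lower one; with median-of-ratios scaling none did.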

How the data were processed

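The deposited matrices hold unnormalised UMI counts, which the authors made with Cell Ranger 7.1.0 on mm10, per the submitters' processing notes. From them, barcodes were kept as cells with a UMI total of at least 1/10 of the 99th percentile among the top 3000 barcodes, 500 or more genes and a mitochondrial share of up to 20%; doublets were kept and no caller was run. Counts were summed per library (104892739, 29892000 and 24681924 UMIs) and divided into CPM. Ratios are log2 of CPM + 1; 95% intervals are exact conditional binomial intervals without the pseudocount and cover counting error only. Groups follow the sample titles. No test was run, since each group had 1 library. On simulated data for 13587 genes with 200 changed 4-fold, the 2-fold rule recovered 94.0% of them at 3 h, 93.5% at 6 h and 93.0% between the times, and called 0 unchanged genes. These simulated counts held counting error only, with no variation between libraries or cells. They therefore give no rate of false calls for the real libraries. Python 3.11.15, scipy 1.17.1 and edgeR 4.0.16 (TMM factors only) were used.

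Members, gene lists and sides were chosen with earlier results of these data known. Genes named are the 6 highest and 6 lowest members at each time with a mean of at least 1 CPM, the 2 most abundant per class, the members next to the 20 UMI limit, the 2 highest and 2 lowest genes per list and comparison, and Hist4h4, Hist1h1c, Hist1h2bc, Hist2h2be, Slbp, Npat, Lsm11, Eri1, H2afz, H3f3b, H1f0, Nasp and Pcna; the cell ranges of Hist4h4 and the genes named for them, the split pairs and the other members named were chosen after their values were seen. Alternatives changed the cell filters, the scaling, the free RNA, the weight of cells, the pseudocount and the thinning depth. The build of RefSeq promoters was GRCm38.p6.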

Additional observations from a re-analysis of the deposited data

Results flagged for a closer look

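Of the 58 members with a mean of at least 1 CPM, 9 lay beyond counting error on opposite sides of the control at 3 h and at 6 h: 6 were above and then below, as were 1.37% of 13587 features, and 3 were below and then above, as were 6.46%. The difference between the times was not tested, and both ratios share the control library. Higher at 3 h and lower at 6 h were 6 copies: Hist1h2br (log2 ratios 1.42 and −0.86), Hist1h2bg (1.28 and −0.46), Hist1h4i (0.79 and −0.30), Hist1h4j (0.63 and −0.47), Hist1h2bl (0.53 and −0.38) and Hist1h3a (0.43 and −0.43). Lower at 3 h and higher at 6 h were 3: Hist1h4d (−0.71 and 0.51), Hist2h2bb (−0.53 and 0.39) and Hist1h2af (−0.35 and 0.36). Counted per cell, none of the 9 was above the control beyond counting error at 3 h.

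Histone RNA also appeared outside the called cells. In barcodes ranked below the cells, the 19 copies higher at 3 h summed to 372 CPM at 3 h and 126 CPM at 6 h, against 107 CPM in the control. The 32 copies lower at 3 h went the other way there, at 1393, 760 and 645 CPM for control, 3 h and 6 h, as did all 63 together (1537, 1201 and 808 CPM).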

How the results depend on the processing

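The call of 17 members past 2-fold at 3 h held in direction under the 11 settings other than UMIs per cell, and 14 of them stayed past 2-fold in each; the others were Hist1h1a and Hist1h2ai (−0.9999 and −0.86 with median-of-ratios factors) and Hist1h2bb (0.91 after free RNA subtraction). At 6 h all 9 did so, and between 6 h and 3 h 11 of 12 did, without Hist1h4d (0.98 with TMM factors). The scaling had the largest effect. With median-of-ratios factors 11 members were at least 2-fold higher at 3 h (6 with CPM), 14 were lower at 6 h than at 3 h (9 with CPM), and 0 list genes were lower at 3 h (6 with CPM). With TMM factors these counts were 11, 14 and 1, and 7 list genes were lower at 6 h (3 with CPM). As UMIs per cell, 0 members were higher and 41 lower at 3 h, 56 were lower at 6 h, and 0 were higher at 6 h than at 3 h. On that scale 5 classes were lower at 3 h and 5 at 6 h, 89 list genes were lower at 3 h and 89 at 6 h, and 5 were lower at 6 h than at 3 h. By the counting interval, 1 member was then above and 61 below the control at 3 h. The log2 values of Hist1h3d (−0.69), Hist1h2bg (−0.60), Hist1h2bb (−0.83), Hist1h2br (−0.39) and Hist1h2ao (−0.055) at 3 h reversed. A pseudocount of 0.1 CPM gave 6 list genes lower at 6 h, and a mean of at least 10 CPM left 5 members lower at 6 h than at 3 h, since fewer genes are tested. Cells with any histone UMI were 90.7%, 78.9% and 80.8% after thinning to 2000 UMIs and 100%, 98.1% and 96.5% without thinning, as depth sets such shares. Beyond what is stated, the cause was not tested.

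No paired analysis was possible because each group has 1 library and its replicate number only names it, and for the same reason no replicate could be left out. Depth limits copies near 1 CPM at 6 h, where 3 counts are 0.122 CPM.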

Other observations

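In the 41 cells at 3 h with 5 or more Hist4h4 UMIs, genes outside the histone clusters also stood apart; they were named after their values were seen, and no test was run. Peak1, a pseudokinase gene, was 407 CPM in these cells against 81.4 CPM in the other 2324. Txnip, which encodes the thioredoxin-interacting protein, was 119 against 26.3 CPM. Pou3f1, a POU-family transcription factor gene, was 61.3 against 7.03 CPM, with 36 UMIs in the 41 cells. The immediate early genes Junb and Egr1 were 51.0 against 10.7 CPM and 39.1 against 4.91 CPM. Arrdc2, an arrestin-domain gene, was 42.5 against 2.42 CPM.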
